A study of Mus musculus with 8 samples.

Results

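The TCF/LEF transcription factors and the Groucho corepressors were compared between 4 colon adenomas and 4 pieces of normal colon from C57BL/6 mice. The group holds 9 genes: the 4 TCF/LEF factors Tcf7, Tcf7l1, Tcf7l2 and Lef1, the full-length Groucho proteins Tle1, Tle2, Tle3 and Tle4, and the short Groucho protein Aes, now named Tle5. Members were every array probe whose gene name in the scanner files was one of these symbols or an older alias. This gave 19 of 41174 probes, for 9 of the 21638 genes that had a probe bright enough to keep. The 2 probes of Tcf7l1 carry its older name Tcf3, and probes of other genes that share an older alias with a member were left out.

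TCF/LEF factors bind DNA through an HMG box. Without a Wnt signal they recruit Groucho proteins and keep target genes silent, and when beta-catenin enters the nucleus it takes the place of Groucho and the same genes are transcribed. Tcf7l2, named Tcf4 in the older literature, is the main TCF of gut epithelium and is needed for its stem cells. Tcf7 and Lef1 are best known from T cells and are themselves Wnt target genes in many cells, and Tcf7l1 acts mostly as a repressor in embryonic and epithelial stem cells. Groucho proteins have no DNA-binding domain and form tetramers, and Aes lacks the part of the protein that binds many repressor partners.

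Each sample was hybridised to 1 one-colour array. Per the labels, all 8 samples came from mice with 1 mutant copy of Apc, whose product marks beta-catenin for destruction. The 4 tumors were colon adenomas from mice also heterozygous for Tcf4 (Tcf7l2), and the 4 normals were normal colon from mice with wild type Tcf4. Tumor state and Tcf4 genotype therefore cannot be told apart in any comparison, and what the mutant Tcf4 allele lacks is not stated in those labels. The sample titles call all 8 samples adult and give no age beyond that. RNA was taken from the distal 2.5 cm of the colon, a length that does not say which layers or parts were used. Markers of several cell types were detected in both groups, so the RNA came from mixed cells. In such samples fewer cells of a type and less RNA per cell cannot be told apart.

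The samples bear on the results in several ways. All values are on the log2 scale of the authors' deposited table, and every difference is tumor minus normal. Of the table's 8 columns, 4 could be traced to a scanner file, and only the column of tumor 1 to the file under its own label. The column of tumor 2 equals the file under normal 4. Over all probes kept, normals 2 and 4 correlated with each other at 0.986. Normal 1 correlated about as closely with the tumors, at 0.918 to 0.951, as with the other normals, at 0.934 to 0.936. Normal 3 correlated with the tumors at 0.946 to 0.967 and with the other normals at 0.857 to 0.936. The library labelled normal 3 was thus closer to every tumor than to any other normal, and stands apart from its group. Results are therefore also given without normal 3, without tumor 2, and without both. The colon marker genes fixed for this tissue were bright in all samples, with list means of 14.31 to 15.33 in the tumors and 16.14 to 16.31 in the normals, and 6 of 11 fell in the tumors, beside 7.83% of all kept probes lower. Without normal 3, 9 fell, when 51.7% of all kept probes were called in either direction, and without any 1 of the others 0 to 5 did.

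The TCF/LEF factors moved in both directions: Lef1 and Tcf7 were higher in the tumors, and Tcf7l2 and Tcf7l1 were lower. The Groucho genes were split as well: Tle4 and Aes were lower, 2 of 3 Tle1 probes were higher, and Tle2 and Tle3 did not pass the test. Of the 19 probes, 17 were kept, meaning at or above the detection limit of 5.59 on at least 4 of the 8 arrays. Of these 17, 12 were called, 6 higher and 6 lower, in limma's test with Benjamini-Hochberg adjustment over all 31871 kept probes at a threshold of 0.05. That share of 70.6% stands beside a background of 13.4% of all kept probes called, 5.62% higher and 7.83% lower. The 2 groups did not overlap for 12 of the 17 probes, against 22.8% of all kept probes. The median difference was 0.40 over the 17 probes and 0.05 over all kept probes. Some genes have several of the 17 probes. Read by the brightest probe of each of the 9 genes, 2 were higher, 4 were lower and 3 did not pass, with a median difference of -0.07. That is 66.7% called, beside 13.8% of the brightest probes of all genes.

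The 12 calls rest on the deposited table and are sensitive to single libraries. In the 3 fits on the scanner values as filed, 0 of 18 member probes were called and 0 had an unadjusted p under 0.05 (limma). These fits hold 4 files that match no column, and count as a normal the file that equals the column of tumor 2. They therefore do not repeat the comparison made in the table. In the table, without normal 3, 15 of 17 member probes were called, when 51.7% of all kept probes were. Without tumor 2 only 1 was called, against 1.08% of all, and without both 13 were called, against 46.3%. Leaving out any of the other 6 samples left 0 to 10 member probes called, with 0 without normal 4 or tumor 3, where 0.11% and 0.00314% of all kept probes were called. Without normal 3, 15 member probes had an unadjusted p under 0.05 (limma), as did 18942 of all 31871 kept probes. In each of the other fits that left out 1 sample 14 did, beside 7444 to 8916 of all kept probes. The arrays lay on 2 slides. Through their files, the columns of tumor 1 and normal 1 belong to the first slide and those of tumor 2 and normal 2 to the second. All 12 called probes had the same direction within each slide as in the whole comparison. Where the groups do not overlap, any tumor against any normal gives that direction, so this does not test the part of the slide. The slides of the other 4 columns are not known, and no fit with the slide as a term could be made on the table.

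**Figure D1:**
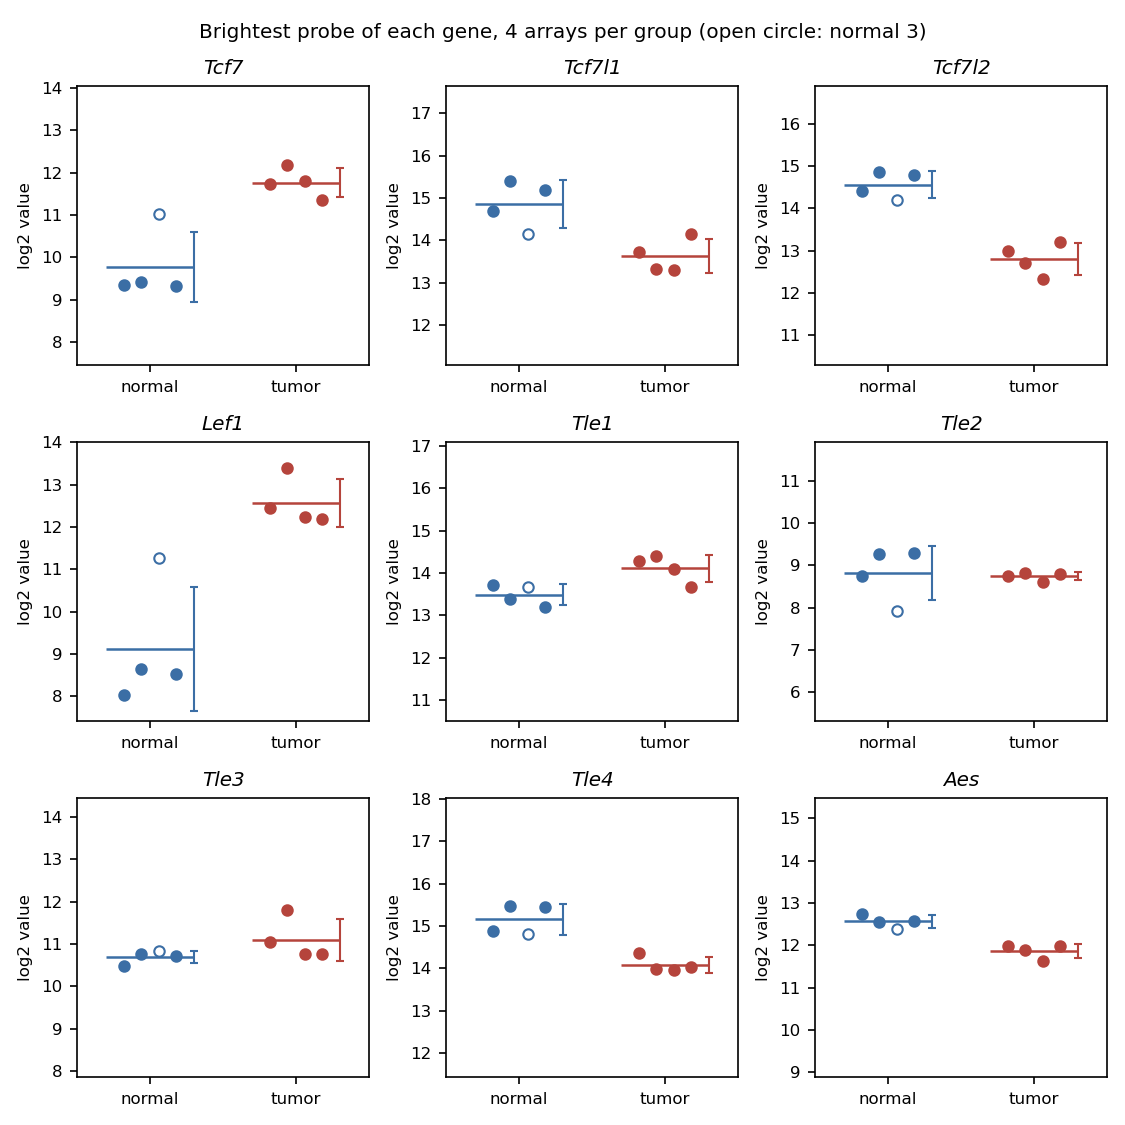
Log2 value of the brightest kept probe of each of the 9 genes on each array, with the group mean (line) and SD (bar, n = 4). Every panel spans the same number of log2 units, and the open circle is normal 3. Lef1 and Tcf7 are higher in all 4 tumors, with normal 3 at 11.26 and 11.02 between the groups, while Tcf7l2, Tle4 and Aes are lower in all 4 tumors.

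Tcf7l2 is the gene whose genotype differs between the groups, so its level was read first. It was covered by 4 probes along chromosome 19 (mm8 coordinates, as the files give them). The brightest, at chr19:55986346-55986405, read 12.99, 12.70, 12.33 and 13.20 in tumors 1 to 4, and 14.42, 14.85, 14.19 and 14.79 in normals 1 to 4. Every tumor lay below every normal. The means were 12.81 ± 0.38 and 14.56 ± 0.31 (SD, n = 4), a difference of -1.75 ± 0.24 (SE), or 3.37-fold (limma, adjusted p = 0.0145). Within the first slide the difference was -1.42 and within the second -2.15. The adjusted p was 0.00264 without normal 3 and 0.00961 without both normal 3 and tumor 2. It rose past the threshold, to between 0.0503 and 0.0551, when tumor 2, tumor 3 or normal 4 was left out, with differences of -1.72 to -1.60.

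The other Tcf7l2 probes also had lower means in the tumors. The probe at chr19:55985220-55985279, close to the brightest one, read 8.09, 8.31, 7.45 and 8.37 in the tumors and 9.85, 10.05, 9.39 and 10.06 in the normals. Its difference was -1.78 ± 0.26, or 3.44-fold (limma, adjusted p = 0.0151). The most upstream probe, at chr19:55961735-55961794 and 24.6 kb before the brightest, read 7.49 to 7.83 in the tumors and 8.01 to 8.97 in the normals. The groups did not overlap there either, but its difference of -0.80 ± 0.24 did not pass the test (limma, adjusted p = 0.0622). It did without normal 3 (adjusted p = 0.0243), in a fit that called 51.7% of all kept probes. Whether a probe lies in a part of the gene removed by the mutant allele is not known here, so the level does not by itself check the genotype.

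The fourth Tcf7l2 probe, at chr19:55978171-55978230, was below the detection limit in all 4 tumors, at 3.27, 4.34, 3.98 and 4.18. Of the normals, 3 were above it, at 6.69, 8.34 and 8.60, and normal 3 was below it at 4.64. Of the 2 traced normal columns, the scanner software flagged this probe as well above background in normal 2 and not in normal 1, so no fold is given. The probe was not kept, and in a fit with no filter it did not pass the test (limma, adjusted p = 0.0635).

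Because probes of a gene share each sample, their difference within a sample can be compared between groups without the sample's overall level. All 10 pairs of kept probes from 1 gene were compared in this way with a 2-sided exact permutation test, whose smallest p is 0.0286 for 4 against 4. The brightest Tcf7l2 probe exceeded the most upstream one by 5.1 ± 0.41 in the tumors and 6.05 ± 0.26 in the normals (SD, n = 4), with no overlap (exact permutation p = 0.0286, 0.0715 after Benjamini-Hochberg adjustment over the 10 pairs). Between the brightest probe and its close neighbour the same measure differed by 0.03 and did not pass (exact permutation p = 0.771). In all, 4 of the 10 pairs had groups that did not overlap, and 0 passed after adjustment, with 4 at an unadjusted p under 0.05. Those 4 were at the smallest p the test can give. With only 4 such pairs among 10, none could have an adjusted p below 0.0715, so not passing says little about them.

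**Figure D2:**
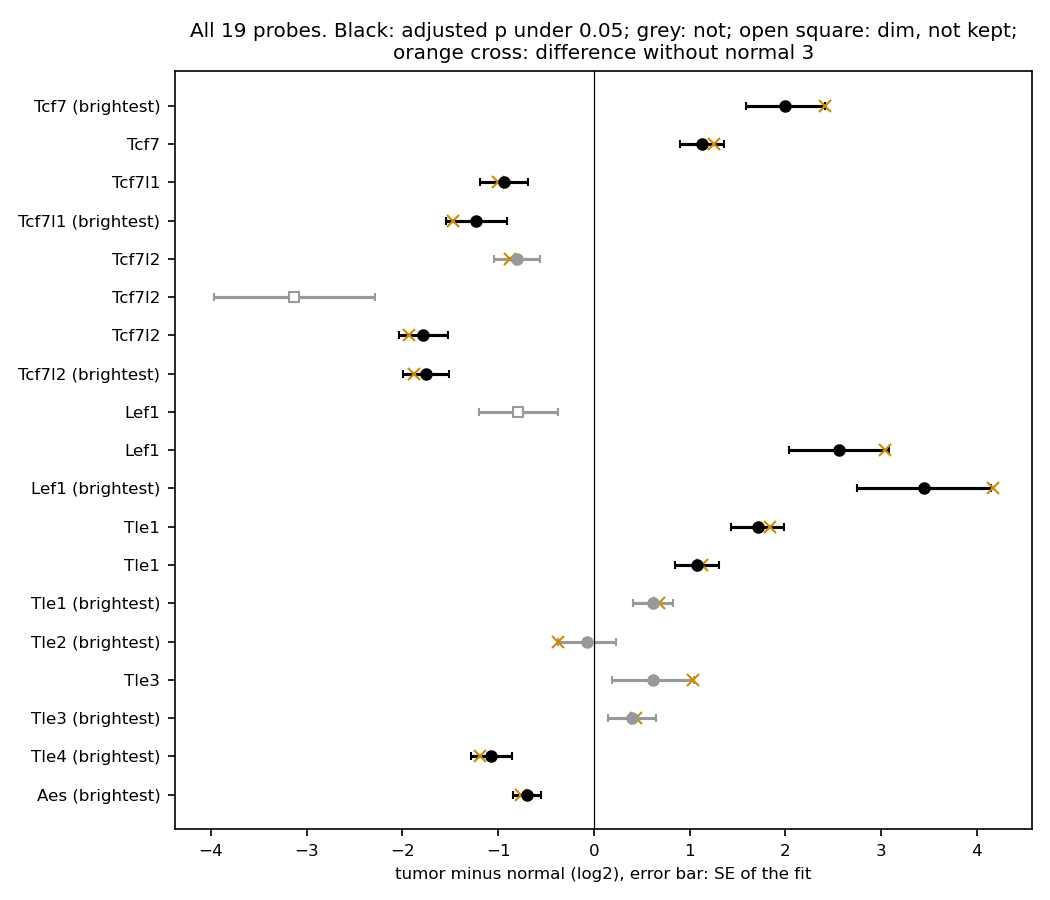
Tumor minus normal difference (log2, horizontal axis) of all 19 probes, 1 row each, with the SE of limma's fit. Black points passed the test, grey points did not, open squares are the 2 probes not kept (from the fit with no filter), and orange crosses are the differences without normal 3. The called probes of Lef1, Tcf7 and Tle1 lie above 0 and those of Tcf7l2, Tcf7l1, Tle4 and Aes below it, with the 3 Tle1 probes at 1.71, 1.08 and 0.62.

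Tcf7l1, the TCF with mostly repressive activity, was lower in the tumors at both of its probes. The brighter, at chr6:72556737-72556796, read 13.72, 13.33, 13.30 and 14.16 in tumors 1 to 4 and 14.70, 15.39, 14.14 and 15.20 in normals 1 to 4. Tumor 4 and normal 3 touch, so the groups overlap by a narrow margin. The means of 13.63 ± 0.40 and 14.86 ± 0.56 (SD, n = 4) differed by -1.23 ± 0.32, or 2.35-fold (limma, adjusted p = 0.0448). The second probe, at chr6:72555892-72555951, read 11.48 to 12.58 in the tumors and 12.88 to 13.24 in the normals, with no overlap. Its difference was -0.94 ± 0.25 (limma, adjusted p = 0.0452), and with the replicate number as a block it no longer passed (adjusted p = 0.0733). The call of the brighter probe was lost when any sample but normal 3 was left out, with adjusted p values of 0.0507 to 0.127 and differences of -1.41 to -1.06.

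Lef1 had the largest difference of the 9 genes. Its brightest probe, at chr3:131213273-131213332, read 12.45, 13.39, 12.23 and 12.18 in tumors 1 to 4. The normals read 8.02, 8.64 and 8.53 in normals 1, 2 and 4, and 11.26 in normal 3. All tumors lay above all normals, but normal 3 was nearer to the tumors than to its own group. The means were 12.56 ± 0.56 and 9.11 ± 1.46 (SD, n = 4), and the difference was 3.45 ± 0.70, or 10.9-fold (limma, adjusted p = 0.0243). Without normal 3 it was 4.17 (adjusted p = 0.000592). Matching the samples by number, the difference was 4.42, 4.75 and 3.65 in pairs 1, 2 and 4 and 0.97 in pair 3.

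A second Lef1 probe, at chr3:131194088-131212249, read 9.86, 11.28, 10.11 and 10.17 in the tumors and 7.19, 7.43, 9.25 and 7.31 in normals 1 to 4. Normal 3 was again the highest normal and the groups did not overlap, with a difference of 2.56 ± 0.52, or 5.90-fold (limma, adjusted p = 0.0246). The scanner software did not flag this probe as well above background in normal 1, so its value there, and with it the fold, may include background. The third, at chr3:131106293-131106352, lies at the upstream end and was below the detection limit on all 8 arrays, at 3.26 to 3.59 in the tumors and 3.29 to 5.39 in the normals. It gives no fold.

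Tcf7 was higher in the tumors at both probes. The brighter, at chr11:52096035-52096094, read 11.73, 12.18, 11.80 and 11.35 in tumors 1 to 4 and 9.34, 9.41, 11.02 and 9.31 in normals 1 to 4. The groups did not overlap, and again normal 3 was the normal nearest to the tumors. The difference of the means, 11.76 ± 0.34 and 9.77 ± 0.84 (SD, n = 4), was 2.0 ± 0.41, or 3.99-fold (limma, adjusted p = 0.0252). It was 2.41 without normal 3. The second probe, at chr11:52096752-52096811, read 8.85 to 9.68 in the tumors and 7.77 to 8.42 in the normals, a difference of 1.13 ± 0.23 (limma, adjusted p = 0.0244). For Lef1 and Tcf7 alike, the call of the brightest probe was lost when any 1 of normals 1, 2 or 4 or tumors 1, 2 or 3 was left out, with adjusted p values of 0.0653 to 0.0746 for Lef1 and 0.0682 to 0.0797 for Tcf7. Their differences then were 3.09 to 3.56 and 1.84 to 2.01.

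Since Lef1 and Tcf7 are also T cell genes, T cell markers were read beside them. Of 14 T cell markers, 5 rose in the tumors and 0 fell, against 5.62% of all kept probes higher: Zap70 by 2.30, Icos by 1.32, Cd3d by 1.32, Thy1 by 1.17 and Lck by 0.98. The list mean was 9.54 to 9.87 in the tumors and 8.60 to 9.12 in the normals. Cd3e, a defining subunit of the T cell receptor complex, read 10.26 ± 0.45 and 9.27 ± 1.23 (SD, n = 4) and did not pass (limma, adjusted p = 0.236). Normal 3, which was high for Lef1 and Tcf7, had a T cell list mean of 9.0, within the 8.60 to 9.12 of the other normals, and a Cd3d level of 7.68 below the normal mean of 8.55. Its Cd3e was 10.89, above both group means. Of the 14 markers normal 3 lay above the mean of the other normals for 9 and below it for 5, by between -2.02 and 2.17. The probe named Cd8b1 is placed on chromosome 5 and that of Cd8a on chromosome 6, so the former may not read Cd8b1. It did not pass (limma, adjusted p = 0.301) and is among the 5 markers lower in normal 3. Without normal 3, 8 of the markers rose and 1 fell, when 51.7% of all kept probes were called. Without any 1 of the other samples 0 to 3 of the markers were called. The part of T cells in the Lef1 and Tcf7 differences was not tested.

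Markers of other cell types were read in the same way, and their counts without normal 3 stand beside 51.7% of all kept probes called. B cell markers had 0 of 6 called in limma's test, with list means of 8.29 to 9.08 in the tumors and 7.68 to 9.45 in the normals, and without normal 3, 1 rose and 2 fell. Smooth muscle markers had 0 of 9 called, at 13.18 to 14.29 and 12.77 to 15.00, and 2 fell without normal 3. Fibroblast markers had 0 of 8 called, at 13.70 to 14.73 and 11.89 to 14.37, and 1 rose without normal 3. Of the endothelial markers 1 of 7 rose, Cdh5 by 1.14, with list means of 9.82 to 10.29 in the tumors and 8.85 to 9.78 in the normals, which do not overlap, and without normal 3, 3 rose and 1 fell. Small intestine markers had 1 of 8 lower, Slc5a1 by a difference of -1.44, and their mean was highest in normal 3 at 10.94, against 8.69 to 9.67 in the other normals. These single calls, 14.3% and 12.5% of their lists, are near the 13.8% called among the brightest probes of all genes. Normal 3 was also the lowest of all samples for the B cell, smooth muscle, fibroblast and endothelial lists. None of the marker genes kept was below the limit in every sample of a group.

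**Figure D3:**
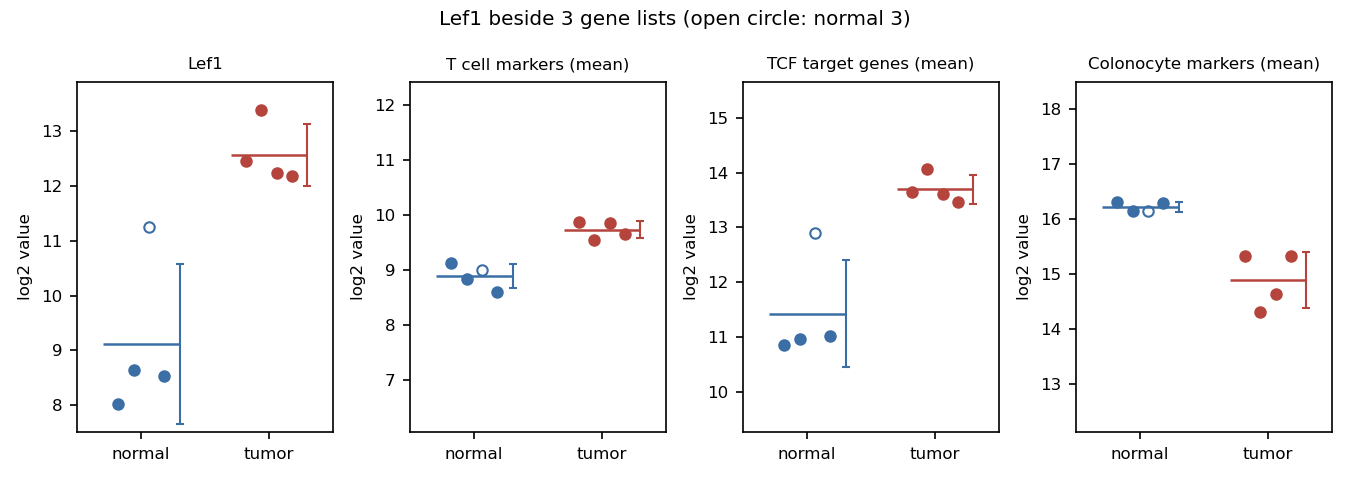
Log2 value in each sample of the brightest Lef1 probe and of the means of 3 gene lists, with the group mean (line) and SD (bar, n = 4); every panel spans the same number of log2 units, and the open circle is normal 3. Normal 3 lies at 12.89 for the TCF target genes, between the other normals (10.85 to 11.01) and the tumors (13.46 to 14.07), at 9.0 for the T cell markers, among the other normals, and at 16.15 for the colonocyte markers, above all tumors.

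The promoter windows of these factors were searched for the core TCF/LEF motif, because Lef1 and Tcf7 rose while Tcf7l1 and Tcf7l2 fell. RefSeq windows of 250 bases before a start (GRCm38.p6, a later build than the probe coordinates) were found for 8 of the 9 genes, 14 windows in all. The letters searched were CTTTGA and CTTTGT on both strands, and none of the matches shown overlap. They were present in 3 of the 14 windows, while 27.6% of all 32851 windows in the table hold at least 1 of them. The sequences below are the first Lef1 window, the internal Lef1 window, and the 2 windows of lowered TCF genes that hold a match. All are given 5′ to 3′ on the gene's strand, with matches in capitals, a match on the opposite strand reading TCAAAG or ACAAAG.
Lef1 first start, chr3:131110047-131110296, plus strand: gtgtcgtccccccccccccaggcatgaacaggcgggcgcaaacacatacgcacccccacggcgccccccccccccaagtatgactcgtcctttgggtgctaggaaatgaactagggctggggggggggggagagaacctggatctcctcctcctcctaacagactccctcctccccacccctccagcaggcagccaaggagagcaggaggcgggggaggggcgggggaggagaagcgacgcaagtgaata
Lef1 internal start, chr3:131156044-131156293, plus strand: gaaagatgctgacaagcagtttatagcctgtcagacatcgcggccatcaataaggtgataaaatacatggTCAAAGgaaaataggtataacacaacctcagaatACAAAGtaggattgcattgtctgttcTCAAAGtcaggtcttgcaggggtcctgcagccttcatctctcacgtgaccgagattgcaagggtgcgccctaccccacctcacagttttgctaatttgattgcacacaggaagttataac
Tcf7l1, chr6:72789046-72789295, minus strand: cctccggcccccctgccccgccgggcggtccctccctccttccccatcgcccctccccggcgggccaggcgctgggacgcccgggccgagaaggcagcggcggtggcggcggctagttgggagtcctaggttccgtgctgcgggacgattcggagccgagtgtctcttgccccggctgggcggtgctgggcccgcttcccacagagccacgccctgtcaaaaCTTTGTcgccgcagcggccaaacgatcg
Tcf7l2 second start, chr19:55895071-55895320, plus strand: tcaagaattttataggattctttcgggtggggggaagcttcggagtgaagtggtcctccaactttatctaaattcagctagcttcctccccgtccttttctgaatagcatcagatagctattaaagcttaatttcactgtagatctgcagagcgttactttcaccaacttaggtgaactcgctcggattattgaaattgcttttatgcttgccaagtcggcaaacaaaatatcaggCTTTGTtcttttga
The internal Lef1 window holds 3 matches, 180, 146 and 120 bases before its start, which lies 45997 bases downstream of the first. Windows with 3 or more matches make up 0.776% of the table. The other Lef1 windows, the Tcf7 windows and the first Tcf7l2 window hold 0. The first Tcf7 window itself holds coding sequence for the beginning of the long Tcf7 protein, and the second lies further downstream. Bases before the start of that long form were therefore not searched, and the 0 for Tcf7 does not cover them. Tcf7l1 holds 1 at 28 bases before its start, and the second Tcf7l2 window 1 at 14 bases. A match is a string of letters and not a measured binding site, and from which start the measured transcripts came was not tested.

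The Groucho genes followed no common direction. Tle1, a full-length Groucho protein, had 3 probes, all with higher means in the tumors. The probe at the 3′ end, at chr4:71604646-71604705, read 13.37, 14.18, 13.73 and 13.12 in tumors 1 to 4 and 12.01, 11.81, 12.28 and 11.45 in normals 1 to 4. Every tumor was above every normal. The difference of 13.60 ± 0.46 and 11.89 ± 0.35 (SD, n = 4) was 1.71 ± 0.28, or 3.28-fold (limma, adjusted p = 0.0174). A probe whose span partly overlaps it, at chr4:71604693-71604752, read 12.17 to 13.18 in the tumors and 11.43 to 11.71 in the normals, a difference of 1.08 ± 0.23 (limma, adjusted p = 0.0262).

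The third and brightest Tle1 probe lies upstream of these, at chr4:71644112-71644171, and the files describe its target as a truncated transcript named GRG1-S. It read 14.28, 14.40, 14.10 and 13.68 in the tumors and 13.72, 13.39, 13.66 and 13.19 in the normals. Tumor 4 lay within the range of the normals. Its difference of 0.62 ± 0.21 did not pass (limma, adjusted p = 0.0851). It did without normal 3 (adjusted p = 0.0376), where 51.7% of all kept probes were called. Within a sample, it exceeded the 3′ probe by 0.52 ± 0.30 in the tumors and 1.61 ± 0.16 in the normals (SD, n = 4), with no overlap (exact permutation p = 0.0286, adjusted over 10 pairs 0.0715). For the 2 probes with overlapping spans this measure differed by 0.63 between the groups (exact permutation p = 0.0286, adjusted over 10 pairs 0.0715). Neither pair passed after adjustment, and at the smallest possible p neither could with only 4 such pairs among the 10.

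**Figure D4:**
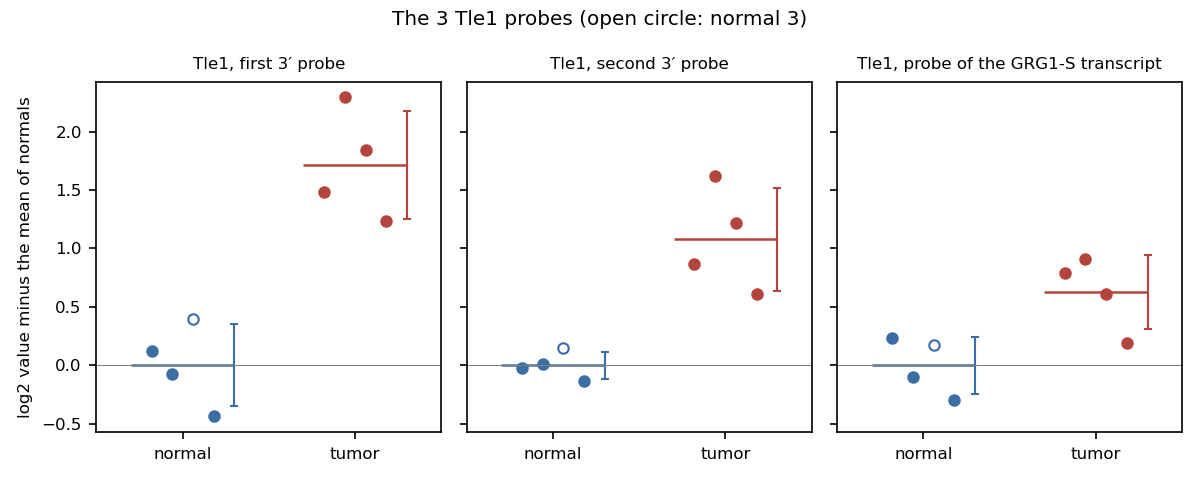
Log2 value of the 3 Tle1 probes in each sample minus the mean of the normals for that probe, with the group mean (line) and SD (bar, n = 4); the open circle is normal 3. The 2 probes at the 3′ end separate the groups, by 1.71 and 1.08, and the probe described as GRG1-S has a smaller difference of 0.62 with overlapping groups.

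Tle4 was lower in the tumors. Its single probe, at chr19:14515200-14515259, read 14.37, 13.97, 13.96 and 14.02 in tumors 1 to 4 and 14.88, 15.48, 14.81 and 15.45 in normals 1 to 4. The tumors other than tumor 1 lay close together, and all lay below the normals. The difference between 14.08 ± 0.20 and 15.15 ± 0.36 (SD, n = 4) was -1.07 ± 0.21, or 2.10-fold (limma, adjusted p = 0.0232). It was lost when any 1 of normals 1, 2 or 4 or tumors 2, 3 or 4 was left out, with adjusted p values of 0.0508 to 0.0786.

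Aes, the short family member, was lower in every tumor than in every normal. Its probe, at chr10:80968874-80968933, read 11.98, 11.89, 11.62 and 11.99 in tumors 1 to 4 and 12.74, 12.56, 12.38 and 12.58 in normals 1 to 4. Matching the samples by number, whose meaning no label gives, the differences were -0.76, -0.67, -0.76 and -0.59. The means of 11.87 ± 0.17 and 12.57 ± 0.15 (SD, n = 4) differed by -0.70 ± 0.15, or 1.62-fold (limma, adjusted p = 0.0270). Normal 3 was 0.24 below the mean of the other normals, so it did not stand apart as it did for Lef1. The call was lost when any 1 of normals 1, 2 or 4 or tumors 1, 2 or 3 was left out, with adjusted p values of 0.0649 to 0.0850.

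Tle2 and Tle3 did not pass the test. Tle2, at chr10:80993419-80993478, read 8.74, 8.82, 8.61 and 8.80 in the tumors and 8.76, 9.28, 7.93 and 9.30 in the normals. The normals spread on both sides of the tumors, with normal 3 lowest, and the difference was -0.07 ± 0.30 (limma, adjusted p = 0.865). The brighter Tle3 probe, at chr9:61215623-61215682, read 11.05, 11.81, 10.77 and 10.75 in the tumors and 10.48, 10.75, 10.82 and 10.72 in the normals, a difference of 0.40 ± 0.25 (limma, adjusted p = 0.255). The second Tle3 probe, at chr9:61214859-61214919, read 10.19, 10.74, 11.02 and 10.69 in the tumors and 10.01, 9.38, 11.28 and 9.47 in the normals. Normal 3 was the highest of all 8 samples there, and the difference of 0.62 ± 0.43 did not pass (limma, adjusted p = 0.292). Without normal 3 it was 1.04 and passed (adjusted p = 0.0159), in a fit that called 51.7% of all kept probes.

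Across the members, normal 3 departed from the other normals mostly toward the tumors, and by unequal amounts. It was above their mean by 2.87 for Lef1, 1.67 for Tcf7 and 0.52 for the 3′ probe of Tle1. It lay below their mean for Tcf7l1, Tcf7l2, Tle4 and Aes, with differences of -0.96, -0.50, -0.46 and -0.24. For Tle2, whose group means hardly differed, it lay -1.18 from the other normals.

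Genes of the same pathway were read from lists. Of 25 nuclear partners of TCF/LEF, 3 rose and 0 fell, a share of 12.0% beside 13.8% of the brightest probes of all genes, with a median difference of -0.00. Ruvbl1, an ATPase found with beta-catenin and TCF in chromatin complexes, rose by 0.97 ± 0.23 (limma, adjusted p = 0.0351). Sox17, an HMG-box factor that can restrain beta-catenin and TCF activity, rose by 4.07 ± 0.99 (limma, adjusted p = 0.0377). Nlk, a kinase that phosphorylates TCF/LEF factors, rose by 0.66 ± 0.18 (limma, adjusted p = 0.0479). With the replicate number as a block 1 of the 25 rose, Ruvbl1, and 1 fell, Jup (adjusted p = 0.0459, 0.0531 and 0.0574 for Ruvbl1, Sox17 and Nlk). Without normal 3, 8 rose and 1 fell, when 51.7% of all kept probes were called, and without any 1 of the other samples 0 were called. Ctnnb1, which encodes beta-catenin, read 16.70 ± 0.25 in the tumors and 16.28 ± 0.18 in the normals (SD, n = 4) and did not pass (limma, adjusted p = 0.140).

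Of 16 other Groucho relatives and repressors known to recruit Groucho, 15 were kept, 4 of them rose and 2 fell. That is 40.0% beside 13.8% for all genes, with a median of 1.2. Prdm1, the repressor also called Blimp1, rose by 1.37 ± 0.26 (limma, adjusted p = 0.0219). Runx2, a runt-domain factor, rose by 1.40 ± 0.28 (limma, adjusted p = 0.0237), and Hey1, a Notch target, by 1.68 ± 0.35 (limma, adjusted p = 0.0249). Nkx2-2, a homeodomain factor of enteroendocrine cells, had a difference of -0.93 ± 0.18 (limma, adjusted p = 0.0218). Hes6 also rose and Hes1 fell. With the replicate number as a block 2 of the 15 rose and 0 fell: Prdm1 and Runx2 remained (adjusted p = 0.0407 and 0.0316), and Hey1 and Nkx2-2 did not (0.0510 and 0.0515). Without normal 3, 8 rose and 3 fell, when 51.7% of all kept probes were called. Without any 1 of the other samples 0 to 3 of the list were called, with 0 without tumor 2.

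Of 18 TCF target genes of gut epithelium, 15 rose and 0 fell, a share of 83.3% beside 13.8% for all genes, with a median of 1.60. Cd44, the hyaluronan receptor, rose by 1.90 ± 0.35 (limma, adjusted p = 0.0210), and Ephb3, which positions cells along the crypt, by 0.80 ± 0.15 (limma, adjusted p = 0.0212). The ubiquitin ligases Rnf43 and Znrf3, which remove Wnt receptors from the cell surface, rose by 1.58 ± 0.31 and 0.96 ± 0.19 (limma, adjusted p = 0.0237 for both). The list mean was 13.46 to 14.07 in the tumors, 10.85 to 11.01 in normals 1, 2 and 4, and 12.89 in normal 3. With the replicate number as a block 8 rose and 0 fell, and Znrf3 was among those that no longer passed (adjusted p = 0.0525). Without normal 3, 17 rose and 0 fell, when 51.7% of all kept probes were called. Without any 1 of the other samples 0 to 7 were called, with 0 without tumor 2.

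The genes whose brightest probe followed the members most closely over the 8 arrays were found by Pearson correlation among 21566 genes, as a description. The 8 arrays form 2 groups, which raises every correlation between genes that differ between them. For Tcf7l2 they were Eppk1 (0.9975), Plcb3 (0.9965) and Ppargc1a (0.9952), all lower in the tumors. For Lef1 they were Prox1 (0.9975), Evl (0.9964) and Rps6kl1 (0.9963), and for Tcf7 they were Traip (0.9985), Plxnb1 (0.9979) and Tnfrsf11b (0.9969), all higher in the tumors. Lef1 and Tcf7 correlated with each other at 0.9928.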

How the data were processed

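RNA of 4 colon tumors and 4 normal colons was measured on one-colour Agilent arrays. The scanner files hold each spot's intensity, extracted with Feature Extraction 9.5.1.1 from design 014868 with probe positions on mm8, per the file headers. The submitters' processing notes name version 10.1.1.1. The authors' deposited table holds 1 column per sample of values found to be log2 and quantile-normalised (the 8 columns have equal 1st, 5th, 25th, 50th, 75th, 95th and 99th percentiles, with a median of 8.51). Scanner files and columns do not match each other by sample label, so the table was used, by its column labels, and scanner values were an alternative.

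A probe was kept at or above 5.59 on at least 4 of 8 arrays. To set this limit, the level below which 95% of background-level probes fell was taken in each of the 4 columns traced to a file (4.50 to 7.70), and then the median of these levels. The test was lmFit and eBayes of limma 3.58.1 (R 4.3.3), 2-sided and adjusted by Benjamini-Hochberg over all 31871 kept probes, and the fit was tested on simulated data. With 4 arrays per group, their number limits the precision. The series text calls the samples independent tissue samples.

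Residuals of samples with the same replicate number correlated at 0.227 to 0.565 in all 4 pairs. A fit with the number as a block was therefore run, though no label says what the number marks. Pairs with unlike numbers ranged from -0.514 to 0.392, and some exceeded the 0.227 of pair 1, so these values do not single out the number. The members and lists were chosen with earlier results of these data known. Named genes were all members with all probes, up to 4 genes per other pathway list that passed with groups not overlapping, lowest adjusted p first, and the 3 genes most correlated with Tcf7l2, Lef1 and Tcf7. Marker genes, Ctnnb1, Hes1 and Hes6 were named after their values were seen. Alternatives were the filter, scaling, variance model, 1 probe per gene, the block, scanner values and each sample left out. Gene names came from a RefSeq table of GRCm38.p6 and promoter sequences from RefSeq.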

Additional observations from a re-analysis of the deposited data

Results flagged for a closer look

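In groups of 4, the gap between an extreme sample and its nearest neighbour was compared with the whole range, using Dixon's critical value for 95%. Of 38 groups, 1 per member probe and tissue, 4 passed it, while chance alone passes about 1 in 20. In normal 3, the brightest Tcf7 probe was at 11.02, against 9.31 to 9.41 in the other normals, and the second Lef1 probe was at 9.25, against 7.19 to 7.43. In tumor 1 the Tle4 probe was at 14.37, against 13.96 to 14.02 in the other tumors. In tumor 2 the upstream Lef1 probe was at 3.59, against 3.26 to 3.29, with all of these values below the detection limit.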

How the results depend on the processing

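With the scanner values as filed, 0 of 32117 probes were called in limma's test (633 at an unadjusted p under 0.05), also with normexp and quantile normalisation (0, with 734) and with the slide as a block (0, with 459). Of the 18 member probes in these fits 0 were called and 0 had an unadjusted p under 0.05. Tcf7l2 was then at -0.75, -0.73 and -0.75, so each call depends on the use of the deposited table. With scanner values as filed and with normexp, Lef1 was at 0.82 and 0.55, Tcf7 at 0.62 and 0.51, Tcf7l1 at -1.93 and -1.91, Tle1 at 0.02 and 0.05, Tle4 at -0.06 in both and Aes at -0.10 and -0.07. Tle2 changed sign, to 0.23, 0.03 and 0.23, and to 0.08 and 0.09 without normal 2 or 4 (-0.39 without normal 3 and tumor 2). Which labels are right is not settled by the files. Since 4 of the files match no column, the scanner fits do not repeat the comparison made in the table.

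Within the table, leaving out 1 sample moved the probes called from 1 to 16474 and member probes from 0 to 15, while Tcf7l2 stayed between -1.88 and -1.60. Leaving out normal 3 and tumor 2 together, chosen after seeing the data, called 14765. With 1 probe per gene, 6 of the 9 members were called (14.5% of all). The replicate block called 3605 probes (11.3%) and 11 member probes, and of the members' calls it changed that of the dimmer Tcf7l1 probe alone. Member probes called were 10 with no filter (7.42% of all), 13 with the limit required on all 8 arrays (19.5%), 13 with an intensity trend and robust variances (17.1%), and 12 after recentring (13.4%). The brightest Tcf7l1 probe lost its call with no filter (adjusted p = 0.0605), and the brightest Tle1 probe gained one with the intensity trend (0.0473).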
